A study of Homo sapiens with 12 samples.

Results

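The 35 genes described here work in interferon signalling and in the sensing of foreign or misplaced nucleic acid. They were taken by symbol from the count table of 53717 genes, where all 35 are listed, and sorted by role into 6 sensors, 8 signalling factors and 21 effectors. RNA was measured in H9, an established human embryonic stem cell line, grown in RSeT medium, which is sold for keeping such cells in a naive-type state. Cells received 25 nM of 1 of 3 oligonucleotides by lipofection, each carrying the dye fluorescein (6-FAM), and dye-positive cells were sorted 48 h later. ASO-Ctr is an antisense oligo with no intended target, ASO-L1 pairs with transcripts of LINE1, which is a family of retrotransposons, and sO-L1 is the LINE1 oligo in the sense direction. Each group had 4 replicates, 12 libraries in all, and the labels do not say whether replicates were separate cultures, so p-values measure the spread between these libraries. Every group also received trans-ISRIB at 0.7 uM, which relieves the translational block of the integrated stress response, emricasan at 5 uM, a caspase inhibitor, and Y-27632 at 10 uM, a ROCK inhibitor, all removed after 24 h. All 3 groups carried a transfected oligo, so a response shared by all oligos and the lipid cannot be read from these comparisons.

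Sensors bind RNA or DNA that lies where cellular nucleic acid normally does not, or that has an unusual form such as double-stranded RNA. They signal through adaptors on mitochondria or the endoplasmic reticulum to kinases and to interferon regulatory factors, which switch on interferon genes. Secreted interferon then acts through its receptors and the JAK-STAT pathway. There a complex that holds STAT2 and IRF9 binds a promoter element called the interferon-stimulated response element (ISRE) and raises the effectors, proteins that block entry, translation or release of viruses. Pluripotent stem cells are known for a weak interferon response and for steady expression of a subset of effectors, IFITM proteins among them. RNA and DNA copies of LINE1 have been described as ligands of these sensors in other cells.

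The promoters of the effectors described below are shown first because the ISRE is the element through which interferon is known to raise effectors. RefSeq promoter windows (GRCh38.p14, 250 bases before to 50 bases after the start) were matched for 25 of the 35 genes. The core of the element was searched as GAAANNGAAA or, on the other strand, TTTCNNTTTC, with overlapping matches counted. It was present in 17 of the 25 genes (68.0%) and in 3.57% of all 35116 windows. By role it was found in 15 of 17 effectors, 2 of 4 sensors and 0 of 4 signalling factors. A match of these letters is a description of the window and does not show that a factor binds there.
The stretches below lie upstream of the start, in the direction of the gene, with the matching letters in capitals.
IFITM1, chr11:313965-314020, plus strand: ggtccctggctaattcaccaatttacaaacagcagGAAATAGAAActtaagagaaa
IFITM3, chr11:320875-320935, minus strand: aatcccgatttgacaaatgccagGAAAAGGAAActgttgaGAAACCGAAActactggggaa
HERC5, chr4:88456979-88457059, plus strand: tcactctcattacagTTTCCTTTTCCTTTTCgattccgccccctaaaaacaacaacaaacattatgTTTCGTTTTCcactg
B2M, chr15:44711357-44711407, plus strand: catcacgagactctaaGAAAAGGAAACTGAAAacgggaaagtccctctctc
ISG15, chr1:1013367-1013417, plus strand: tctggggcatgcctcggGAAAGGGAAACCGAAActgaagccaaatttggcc
ISG20, chr15:88638926-88638976, plus strand: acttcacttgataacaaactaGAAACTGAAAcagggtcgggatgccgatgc
BST2, chr19:17405730-17405780, minus strand: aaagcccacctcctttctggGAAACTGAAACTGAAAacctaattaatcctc
The first 6 of these genes were higher in the ASO-L1 libraries than in the ASO-Ctr libraries, and BST2 was lower, with the values below. BST2, B2M and ISG15 each hold a pair of overlapping matches, and HERC5 holds 3 matches on the other strand. The element was thus present in 6 of the 6 genes called higher that had a window, in 1 of 5 called lower and in 9 of 12 not called. Over all genes with a window the shares were 3.64% of those higher, 3.92% of those lower and 4.04% of those not called. This split largely follows role. The 6 higher genes were all effectors, and DDX58, IFI16, MAVS and STAT2, lower and without a match, are sensors or signalling factors. Against sO-L1 the element was present in 5 of 5 genes called higher, 2 of 6 called lower (BST2 and IFIT3) and 9 of 12 not called. A link between the element and direction was not tested.

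Levels are CPM, a gene's counts relative to the total counts of its library, scaled between libraries by the trimmed mean of M values (TMM). Counts in genes came to 22.8 to 55.1 M per library, and 3 counts, the limit that a count of 0 allows, correspond to 0.0545 to 0.131 CPM (counting error only). Genes of the mitochondrial genome took 5.59 to 6.48% of the counts.

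Markers of cell identity were read in the same libraries, and the ASO-L1 libraries stood apart in some of them. The sum of 10 pluripotency markers was 10430.0 to 10520.0 CPM in ASO-Ctr, 10210.0 to 10790.0 in sO-L1 and 9237 to 9670.0 in ASO-L1, so every ASO-L1 library was lower than all others. These markers did not all differ in the same direction. DNMT3B, a DNA methyltransferase, had a mean of 2505 CPM in ASO-Ctr, 2433 in sO-L1 and 1764 in ASO-L1. LIN28A had means of 2032, 1926 and 1743 CPM in the same order. DPPA4 was higher in ASO-L1, with means of 1245, 1279 and 1417 CPM. POU5F1 had means of 1168, 1194 and 1238 CPM and lay between 1081 and 1305 CPM over all libraries. The sum of 10 naive-state markers was 95.3 to 125 CPM in ASO-Ctr, 104 to 136 in sO-L1 and 128 to 172 in ASO-L1. Among them KLF4 had means of 20.1, 22.9 and 47.5 CPM, DPPA3 of 30.5, 36.2 and 40.9 and TFCP2L1 of 20.4, 20.7 and 25.6 in the 3 groups. The naive-state markers did not all differ in the same direction. DPPA5 ranged from 5.48 to 12.2 CPM in ASO-Ctr, 4.79 to 12.1 in sO-L1 and 2.92 to 4.03 in ASO-L1. FGF4 ranged from 14.7 to 25.5 CPM in ASO-Ctr, 17.3 to 24.4 in sO-L1 and 10.3 to 13.7 in ASO-L1. KLF17 did not pass 0.491 CPM in any library. Of 10 leukocyte markers, which stand for cells with their own strong interferon programme, 9 were under 1 CPM in all libraries and the pan-leukocyte gene PTPRC did not pass 0.0580 CPM. The summed leukocyte level ranged from 1.13 to 1.76 CPM in ASO-Ctr, 0.824 to 2.10 in sO-L1 and 1.24 to 2.31 in ASO-L1. The sum of 10 fibroblast or feeder markers ranged from 132 to 158 CPM in ASO-Ctr, 121 to 150 in sO-L1 and 123 to 144 in ASO-L1, but its members did not all differ in the same direction. In ASO-Ctr, sO-L1 and ASO-L1, COL1A2 had means of 61.3, 59.2 and 36.6 CPM, PDGFRA of 15.3, 17.8 and 8.19, THY1 of 54.8, 47.3 and 73.6 and COL1A1 of 12.4, 11.9 and 13.3. LUM was at 0 and COL3A1, DCN and FAP did not pass 0.0687 CPM. The sum of 10 trophectoderm or amnion markers was 2.52 to 4.495 CPM in ASO-Ctr, 2.44 to 4.21 in sO-L1 and 4.17 to 5.70 in ASO-L1, with CDX2 at 0. The part of these marker differences in the results below was not tested.

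**Figure D1:**
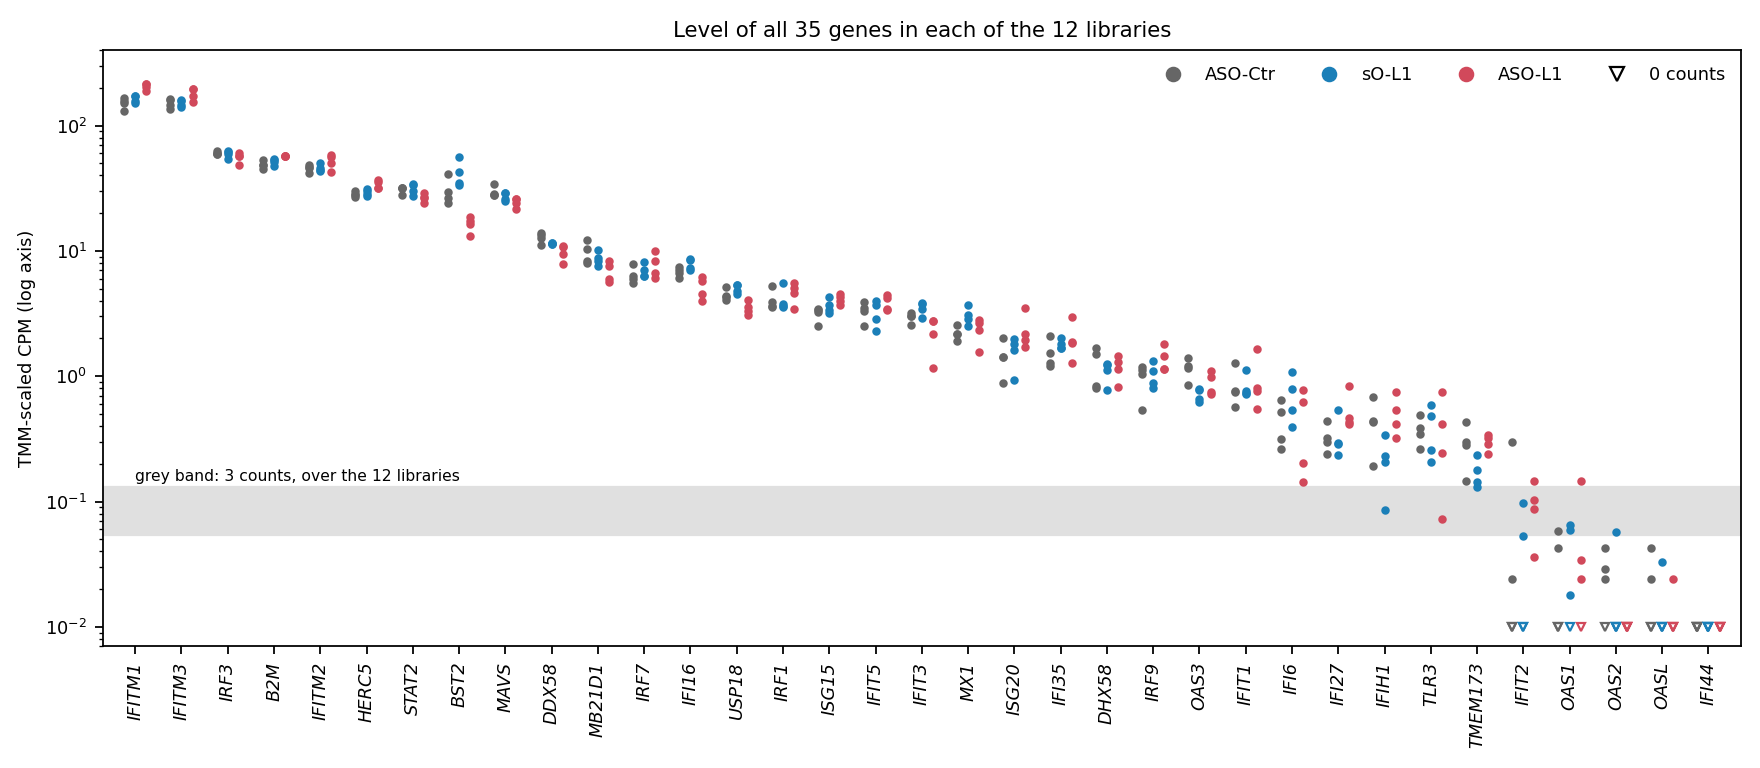
Level of each of the 35 genes in TMM-scaled CPM on a log axis, 1 point per library and 1 colour per oligo group, ordered by mean level. The grey band spans the value of 3 counts over the 12 libraries (0.0545 to 0.131 CPM), and triangles mark 0 counts. IFITM1 and IFITM3 stand above all others, and IFIT2, OAS1, OAS2, OASL and IFI44 lie in or near the band.

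The 35 genes were present at very different levels. Per kilobase of exon (GENCODE v29 union exon length), the order over all libraries began with IFITM1 at 167 CPM per kb, IFITM3 at 133, IFITM2 at 45.2, BST2 at 28.97, IRF3 at 24.5 and B2M at 22.1. STAT2 at 8.71 and HERC5 at 8.48 CPM per kb followed, with STAT2 above HERC5 in the mean of ASO-Ctr and below it in that of ASO-L1. The sensors lay lower, with DDX58 at 2.61, MB21D1 at 2.29 and IFI16 at 2.24 CPM per kb the highest of them and TLR3 at 0.0602 the lowest. That order was not the same in each group: DDX58, MB21D1 and IFI16 were at 2.94 ± 0.284, 2.64 ± 0.543 and 2.31 ± 0.194 CPM per kb in ASO-Ctr, 2.63 ± 0.0226, 2.36 ± 0.306 and 2.67 ± 0.281 in sO-L1 and 2.25 ± 0.325, 1.86 ± 0.348 and 1.74 ± 0.355 in ASO-L1 (SD, n = 4). The classical antiviral effectors were low, with IFIT1 at 0.189, OAS3 at 0.117, IFIT2 at 0.0172 and OAS1 at 0.00904 CPM per kb.

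A filter on low counts was passed by 30 of the 35 genes, namely all 6 sensors, all 8 signalling factors and 16 of 21 effectors. The 5 effectors under it were IFI44, which had no read in any library, and IFIT2, OAS1, OAS2 and OASL, with at most 7 counts and 0.2997 CPM in a library. IFI44 is a cytoplasmic protein raised by type I interferon, IFIT2 belongs to the family that binds viral RNA ends, and OAS1 and OAS2 make the messenger that activates RNase L. Summed over the 5 genes, 16 reads were counted in ASO-Ctr, 14 in sO-L1 and 21 in ASO-L1.

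Of 9 interferon genes, 0 passed the filter and 4 (IFNA1, IFNL1, IFNL2 and IFNL3) had no read at all. IFNB1, the first interferon made after sensing, had 1 read in ASO-Ctr and none elsewhere, and CXCL10, a chemokine strongly induced by interferon, had none in any library. All 9 interferon genes together had 5 reads in ASO-Ctr, 8 in sO-L1 and 19 in ASO-L1. Of the 19 reads, 11 belonged to IFNE, with 7 of those in ASO-L1 replicate 3, and 5 to IFNG, all 5 in ASO-L1 replicate 1. RSAD2, or viperin, another antiviral effector, had 5, 5 and 16 reads in ASO-Ctr, sO-L1 and ASO-L1, and stayed at or below 0.275 CPM.

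The sums over the sensors and over the signalling factors were lower with ASO-L1 than with ASO-Ctr, and that over the effectors was higher. The 6 sensors summed to 31.3 ± 2.43 CPM (SD, n = 4) in ASO-Ctr, 29.7 ± 1.39 in sO-L1 and 23.8 ± 2.08 in ASO-L1, and the highest ASO-L1 library (26.9) lay below the lowest of the other groups (28.1). Most of the sensor sum lay in DDX58, MB21D1 and IFI16. The 8 signalling factors summed to 137 ± 2.89, 135 ± 6.87 and 125 ± 7.61 CPM. The highest ASO-L1 library (129.8) lay below the lowest of ASO-Ctr (133.7), while sO-L1 and ASO-L1 overlapped. The 21 effectors summed to 474 ± 27.5, 502 ± 16.8 and 565 ± 34.4 CPM, and the lowest ASO-L1 library (529) lay above the highest of the others (518). Most of this difference lay in IFITM1, IFITM2 and IFITM3, which summed to 349 ± 26.1, 360 ± 14.3 and 437 ± 35.3 CPM, while the other 18 effectors summed to 125 ± 5.14, 142 ± 13.1 and 128 ± 1.43 CPM. The trio made up 54.3% of the summed level of all 35 genes in ASO-Ctr, 54.0% in sO-L1 and 61.3% in ASO-L1. In sorted bulk RNA, a lower level per cell and a smaller share of cells with the RNA cannot be told apart.

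Genes were tested with edgeR's quasi-likelihood test over all 17264 genes that passed the filter, with the replicate number in the model, and called at a Benjamini-Hochberg adjusted p under 0.05. Between ASO-L1 and ASO-Ctr, 7 of the 30 genes tested were higher and 7 lower (46.7%), against 44.3% of all genes tested (21.2% higher, 23.1% lower). Between ASO-L1 and sO-L1, 5 were higher and 8 lower (43.3%), against 44.0% of all genes (21.1% higher, 22.9% lower). Both shares are near the background of this experiment, so the count of calls does not set these genes apart. The median log2 fold change was 0.12 and 0.16. The groups did not overlap in 8 and 9 of the 30 genes (background 33.3% and 32.1%). In both comparisons 11 genes were called in the same direction, but both use the same ASO-L1 libraries. No share over all genes stands beside that count, so it does not set these genes apart. Between sO-L1 and ASO-Ctr none of the 30 genes was called, against 0.290% of all genes (0.0695% higher, 0.220% lower). An unadjusted p under 0.05 was reached by 4 of the 30, and by 1232 of all 17264 genes. DESeq2 called 0 there. On the authors' batch-corrected log2 table, limma without a replicate term called 1 in the same comparison, OAS3.

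**Figure D2:**
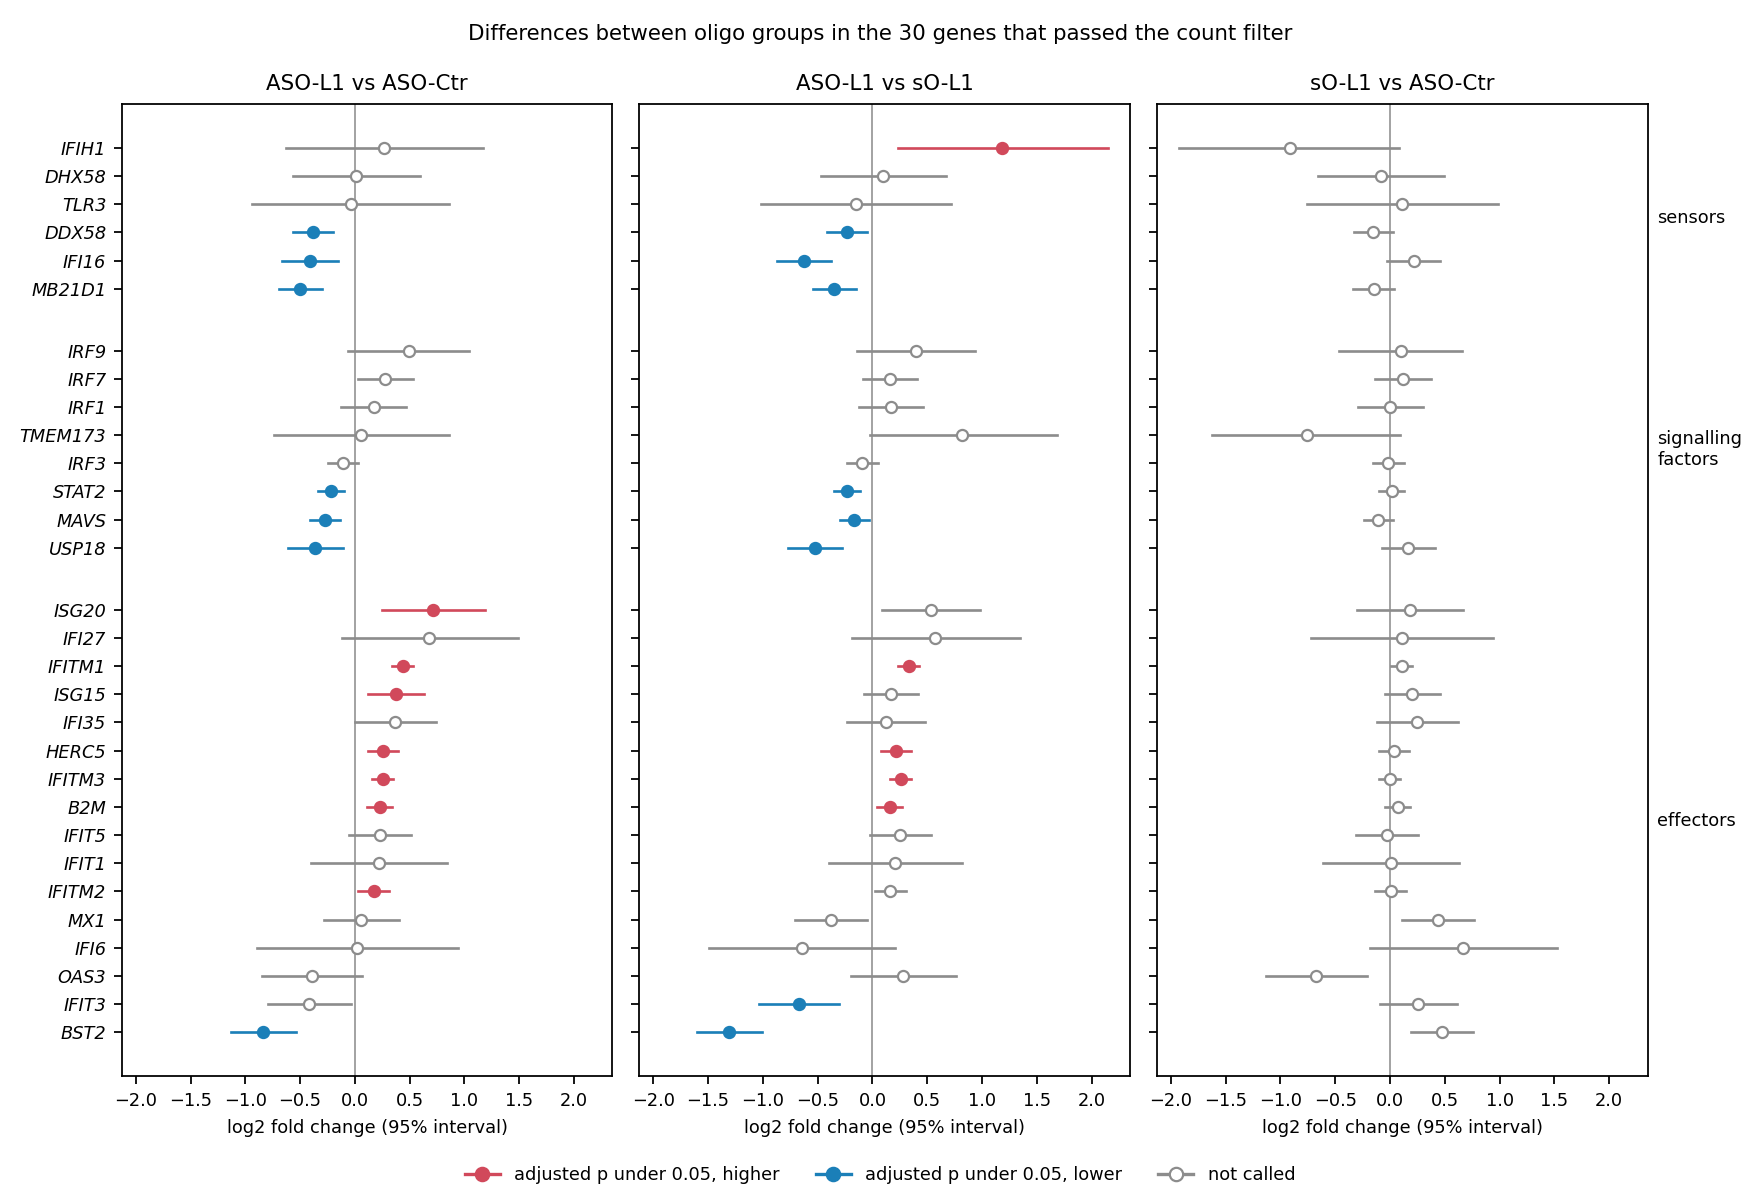
Log2 fold change with its 95% interval for the 30 genes that passed the filter, by role, in the 3 comparisons of oligo groups (edgeR, 4 libraries a group). Filled points have an adjusted p under 0.05. In the left panel, the 3 sensors and 3 signalling factors that pass are on the lower side and 7 of 8 passing effectors on the higher side, and in the right panel no gene passes.

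Among the sensors, 3 of 6 were lower in ASO-L1 than in ASO-Ctr and 0 were higher (23.1% of all genes were lower and 21.2% higher). They were DDX58, also called RIG-I, which binds double-stranded RNA with a triphosphate end, MB21D1, also called cGAS, which binds cytosolic DNA, and IFI16, which binds DNA in the nucleus and cytosol. The same 3 were lower against sO-L1, where 1 sensor, IFIH1, was higher. The median log2 fold change of the 6 was -0.21 against ASO-Ctr and -0.19 against sO-L1.

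DDX58 was at 11.1, 12.7, 13.4 and 14.0 CPM in ASO-Ctr replicates 1 to 4, 11.4, 11.6, 11.5 and 11.4 in sO-L1 and 7.93, 11.03, 9.45 and 10.7 in ASO-L1. All 4 ASO-L1 libraries lay below all 8 others. The log2 fold change was -0.39 (SE 0.086) against ASO-Ctr, adjusted p = 0.00164 by edgeR, and -0.23 (SE 0.086) against sO-L1, adjusted p = 0.0384. In 16 further fits, each without 1 replicate number or 1 library, the second call was lost 10 times (adjusted p up to 0.189). It was lost as well in 4 of 8 other settings: without the replicate block, without a filter, with only the 2 groups and with DESeq2 (adjusted p up to 0.114).

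MB21D1 was at 12.3, 8.26, 8.03 and 10.4 CPM in ASO-Ctr, 10.2, 7.53, 8.79 and 8.25 in sO-L1 and 8.33, 5.65, 5.95 and 7.56 in ASO-L1. The groups overlapped, and replicate 1 was the highest library of each group, but ASO-L1 was the lowest library within each of the 4 replicate numbers. The log2 fold change was -0.50 (SE 0.093, edgeR adjusted p = 0.000345) against ASO-Ctr and -0.35 (SE 0.093, adjusted p = 0.00559) against sO-L1. Without the replicate block the second was not called (adjusted p = 0.102), nor without replicate 2 or 3 (adjusted p up to 0.0540).

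IFI16 was at 7.02, 6.09, 6.61 and 7.42 CPM in ASO-Ctr, 8.56, 6.98, 8.53 and 7.30 in sO-L1 and 3.96, 4.51, 5.74 and 6.20 in ASO-L1. The ASO-L1 libraries lay below all sO-L1 libraries and overlapped with ASO-Ctr by 1 library, replicate 4. The log2 fold change was -0.41 (SE 0.12, edgeR adjusted p = 0.0105) against ASO-Ctr, lost without replicate 2 (adjusted p = 0.0666), and -0.62 (SE 0.12, adjusted p = 0.000388) against sO-L1.

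The other 3 sensors were at low levels. IFIH1, or MDA5, which binds long double-stranded RNA, ranged from 0.0859 CPM in sO-L1 replicate 1 to 0.752 in ASO-L1 replicate 2. Its level was 0.438 ± 0.202 CPM in ASO-Ctr, 0.215 ± 0.103 in sO-L1 and 0.506 ± 0.187 in ASO-L1 (SD, n = 4), so the log2 fold change of 1.18 (SE 0.45, edgeR adjusted p = 0.0416) against sO-L1 goes with the low sO-L1 value. It was lost in 9 of 16 fits with libraries left out (adjusted p up to 0.248), with DESeq2 and with limma on the authors' log2 table. DHX58, or LGP2, which modulates the other RNA helicase sensors, stayed between 0.773 and 1.67 CPM. TLR3, the endosomal sensor of double-stranded RNA, stayed between 0.0721 and 0.753 CPM. Neither passed a test, with 95% intervals of the log2 difference from -0.57 to 0.60 for DHX58 and -0.94 to 0.86 for TLR3 (ASO-L1 against ASO-Ctr).

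Of the 8 signalling factors, 3 were lower in ASO-L1 against either other group and 0 were higher, 37.5% called, which is under the 44.3% and 44.0% of all genes. They were MAVS, the mitochondrial adaptor that DDX58 and IFIH1 signal through, STAT2, the subunit specific to type I and III interferon signalling, and USP18, which removes ISG15 from proteins and dampens the type I interferon receptor.

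MAVS was at 27.7, 34.04, 28.4 and 27.9 CPM in ASO-Ctr, 25.03, 29.03, 29.2 and 26.2 in sO-L1 and 21.7, 25.99, 23.9 and 25.96 in ASO-L1. The ASO-L1 libraries lay below all ASO-Ctr libraries and overlapped with sO-L1. Log2 fold changes against ASO-Ctr and sO-L1 were -0.27 (SE 0.064, edgeR adjusted p = 0.00235) and -0.16 (SE 0.064, adjusted p = 0.0455), and the second was lost in 12 of 16 fits with libraries left out (adjusted p up to 0.251) and in 6 of 8 other settings.

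STAT2 was at 27.8, 31.7, 31.99 and 31.9 CPM in ASO-Ctr, 27.4, 33.98, 33.4 and 29.99 in sO-L1 and 24.0, 26.96, 29.0 and 26.4 in ASO-L1. Libraries of replicate 1 were the lowest of each group, and ASO-L1 was lowest within every replicate number although the groups overlapped. Against ASO-Ctr and sO-L1 the log2 fold changes were -0.22 (SE 0.056, edgeR adjusted p = 0.00494) and -0.23 (SE 0.056, adjusted p = 0.00298). The first was not called without the replicate block (adjusted p = 0.0541), nor the second without replicate 2 (adjusted p = 0.0581).

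USP18 was at 4.07, 4.34, 4.28 and 5.19 CPM in ASO-Ctr, 4.75, 5.38, 5.32 and 4.52 in sO-L1 and 3.10, 3.30, 4.02 and 3.56 in ASO-L1. The ASO-L1 libraries lay below all 8 others. Its log2 fold change of -0.53 (SE 0.12, edgeR adjusted p = 0.00155) against sO-L1 was called in every alternative run, and that of -0.36 (SE 0.12, adjusted p = 0.0217) against ASO-Ctr was lost without replicate 2 or 4, without ASO-L1 replicate 2 and without ASO-Ctr replicate 4 (adjusted p up to 0.135).

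The 5 other signalling factors passed no test with all libraries. IRF3, the factor that sensors activate first, was the highest of them at 60.3 ± 1.74 CPM in ASO-Ctr, 59.5 ± 3.57 in sO-L1 and 55.9 ± 5.20 in ASO-L1, and the 95% interval of its log2 difference between ASO-L1 and ASO-Ctr ran from -0.25 to 0.03. IRF7, which amplifies the response, was at 6.39 ± 0.980, 6.95 ± 0.847 and 7.82 ± 1.78 CPM (adjusted p = 0.0692 by edgeR for ASO-L1 against ASO-Ctr). For ASO-L1 against ASO-Ctr, IRF7 was called in 5 of the 16 fits with libraries left out (without replicate 1 or 4, without ASO-L1 replicate 1 or 4 and without ASO-Ctr replicate 4, adjusted p down to 0.0170) and IRF3 in 1 (without ASO-L1 replicate 4, 0.0397). IRF1, a factor raised by interferon gamma, was between 3.44 and 5.56 CPM. TMEM173, also called STING, the adaptor that MB21D1 activates through its cyclic dinucleotide, did not pass 0.430 CPM in any library. IRF9, the DNA-binding partner of STAT2, was between 0.535 and 1.80 CPM, but 93.5% of its exon bases are shared on the same strand with another annotated transcript, AL136295.5, so its level is uncertain. IRF3 shares 20.1% and IRF1 15.3% of exon bases with genes on the opposite strand, and whether strand was used in the counting is not given in the sources.

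Among the effectors, 7 of 16 tested were higher in ASO-L1 than in ASO-Ctr and 1 was lower (21.2% of all genes were higher and 23.1% lower). The 7 were IFITM1, IFITM2 and IFITM3, which block fusion of viruses with cell membranes, HERC5, the ligase that attaches ISG15 to proteins, ISG15 itself, the RNA exonuclease ISG20, and B2M, the light chain of MHC class I. The 1 lower was BST2, or tetherin, which holds budding viruses at the cell surface. Against sO-L1, IFITM1, IFITM3, HERC5 and B2M were higher and BST2 and IFIT3 lower, 37.5% called against 44.0% of all genes.

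IFITM1 was at 166, 132, 152 and 157 CPM in ASO-Ctr, 173, 150.3, 156 and 173 in sO-L1 and 203, 189.7, 215 and 213 in ASO-L1. All 4 ASO-L1 libraries lay above all 8 others. It was 1.35-fold higher than in ASO-Ctr (log2 0.44, SE 0.046, edgeR adjusted p = 1.18e-06) and 1.26-fold higher than in sO-L1 (log2 0.33, SE 0.046, adjusted p = 2.04e-05). Within replicate numbers 1 to 4 the log2 difference from ASO-Ctr was 0.29, 0.52, 0.50 and 0.43.

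IFITM3 was at 146, 136, 161 and 162 CPM in ASO-Ctr, 140.0, 147, 159 and 156 in sO-L1 and 155, 173, 197 and 196 in ASO-L1. The ASO-L1 library of replicate 1 fell within the range of the other groups and the other 3 lay above it. It was higher by 0.25 on the log2 scale than in ASO-Ctr (SE 0.046, edgeR adjusted p = 0.000308) and by 0.26 than in sO-L1 (SE 0.046, adjusted p = 0.000274).
IFITM2 was at 46.5, 41.9, 45.9 and 48.9 CPM in ASO-Ctr, 43.99, 43.7, 50.6 and 45.5 in sO-L1 and 42.6, 50.4, 55.7 and 57.8 in ASO-L1. It was the weakest call of the trio: log2 0.17 (SE 0.066, edgeR adjusted p = 0.0453) against ASO-Ctr, higher in 3 of 4 replicate numbers, and 0.16 (adjusted p = 0.0529) against sO-L1. The first was lost in 11 of 16 fits with libraries left out (adjusted p up to 0.235). IFITM1, IFITM2 and IFITM3 are neighbours on chromosome 11 with closely similar sequences, so reads shared between them make the level of a single gene uncertain, and IFITM3 shares 23.7% of its exon bases with a transcript on the opposite strand. The direction of IFITM1 and IFITM3 was the same under every scaling tried.

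HERC5 was at 26.8, 28.5, 29.8 and 28.1 CPM in ASO-Ctr, 30.9, 28.3, 27.4 and 29.99 in sO-L1 and 36.98, 35.2, 31.6 and 31.9 in ASO-L1. All ASO-L1 libraries lay above the 8 others. Log2 fold changes against ASO-Ctr and sO-L1 were 0.26 (SE 0.065, edgeR adjusted p = 0.00400) and 0.22 (SE 0.064, adjusted p = 0.0111), the second lost without replicate 2 and without the replicate 2 library of sO-L1 or ASO-L1 (adjusted p up to 0.0934).
B2M was at 45.3, 48.6, 48.8 and 53.2 CPM in ASO-Ctr, 53.7, 47.6, 51.6 and 52.9 in sO-L1 and 57.5, 57.3, 57.6 and 57.3 in ASO-L1. The ASO-L1 libraries were close to one another and above all others. In log2 terms it was higher than in ASO-Ctr and sO-L1 by 0.23 (SE 0.054, edgeR adjusted p = 0.00255) and 0.16 (SE 0.054, adjusted p = 0.0235), the second lost in 5 of 16 fits with libraries left out, namely without replicate 2 or 3, without sO-L1 replicate 2 and without ASO-L1 replicate 2 or 3 (adjusted p up to 0.163).

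ISG15, a ubiquitin-like protein, was at 3.47, 3.39, 2.52 and 3.27 CPM in ASO-Ctr, 4.33, 3.40, 3.21 and 3.73 in sO-L1 and 4.25, 3.71, 3.99 and 4.49 in ASO-L1. The ASO-L1 libraries lay above all ASO-Ctr libraries and overlapped with sO-L1, which lay between. Its log2 fold change was 0.37 (SE 0.12, edgeR adjusted p = 0.0184) against ASO-Ctr and 0.17 (adjusted p = 0.257) against sO-L1. The first was lost without replicate 3 or 4, without ASO-Ctr replicate 3 and without ASO-L1 replicate 3 or 4 (adjusted p up to 0.132). ISG20 was low, from 0.883 CPM in ASO-Ctr replicate 2 to 3.50 in ASO-L1 replicate 1. Its log2 fold change of 0.71 (SE 0.22, edgeR adjusted p = 0.0145) against ASO-Ctr was lost without replicate 2 and without the replicate 2 library of ASO-Ctr or ASO-L1 (adjusted p up to 0.113), and without the replicate block (0.0541).

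BST2 showed the largest fold change of the genes called in both comparisons, and in the direction opposite to the other effectors called against ASO-Ctr. It was at 41.3, 29.3, 24.02 and 26.6 CPM in ASO-Ctr, 55.9, 42.95, 34.7 and 33.8 in sO-L1 and 13.1, 16.5, 17.5 and 18.7 in ASO-L1. The ASO-L1 libraries lay below all 8 others, and the sO-L1 library was the highest within every replicate number. BST2 was 1.78-fold lower than in ASO-Ctr (95% interval 1.45 to 2.20, edgeR adjusted p = 0.000159) and 2.47-fold lower than in sO-L1 (2.01 to 3.04, adjusted p = 1.52e-06). Within replicate numbers 1 to 4 the log2 difference between ASO-L1 and ASO-Ctr was -1.65, -0.82, -0.46 and -0.50, widest in replicate 1, where ASO-Ctr and sO-L1 were highest and ASO-L1 lowest. Between sO-L1 and ASO-Ctr the log2 fold change was 0.47 (SE 0.13, unadjusted p = 0.00257, edgeR adjusted p = 0.24), higher in 4 of 4 replicate numbers. It was not called with all 12 libraries, but was called without a filter, with only the 2 groups, without replicate 1 and without ASO-L1 replicate 1, with adjusted p of BST2 from 1.83e-12 to 0.9998 over all alternatives. Its log2 fold change moved far less, from 0.36 to 0.59 over the same fits. In the fit without a filter the prior degrees of freedom, the weight of the spread shared by all genes, were infinite, which gives the spread of BST2 itself no weight. The other 3 fits that called it hold no ASO-L1 replicate 1, and had prior degrees of freedom of 71.8, 29.7 and 36.2 and a common biological coefficient of variation (the spread between replicates shared by all genes) of 0.0356, 0.0371 and 0.0397, against 10.8 and 0.0634 with all libraries. DESeq2 and limma did not call BST2 there (adjusted p = 0.728 and 0.255).

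IFIT3, a partner of IFIT1 in the binding of viral RNA, was at 2.57, 3.03, 3.18 and 3.01 CPM in ASO-Ctr, 3.44, 3.81, 3.79 and 2.91 in sO-L1 and 1.15, 2.18, 2.75 and 2.78 in ASO-L1. The ASO-L1 libraries lay below all sO-L1 libraries and overlapped with ASO-Ctr. Its log2 fold change was -0.41 (SE 0.18, edgeR adjusted p = 0.0688) against ASO-Ctr and -0.67 (SE 0.17, adjusted p = 0.00444) against sO-L1, the second lost without replicate 2 (adjusted p = 0.0508).

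**Figure D3:**
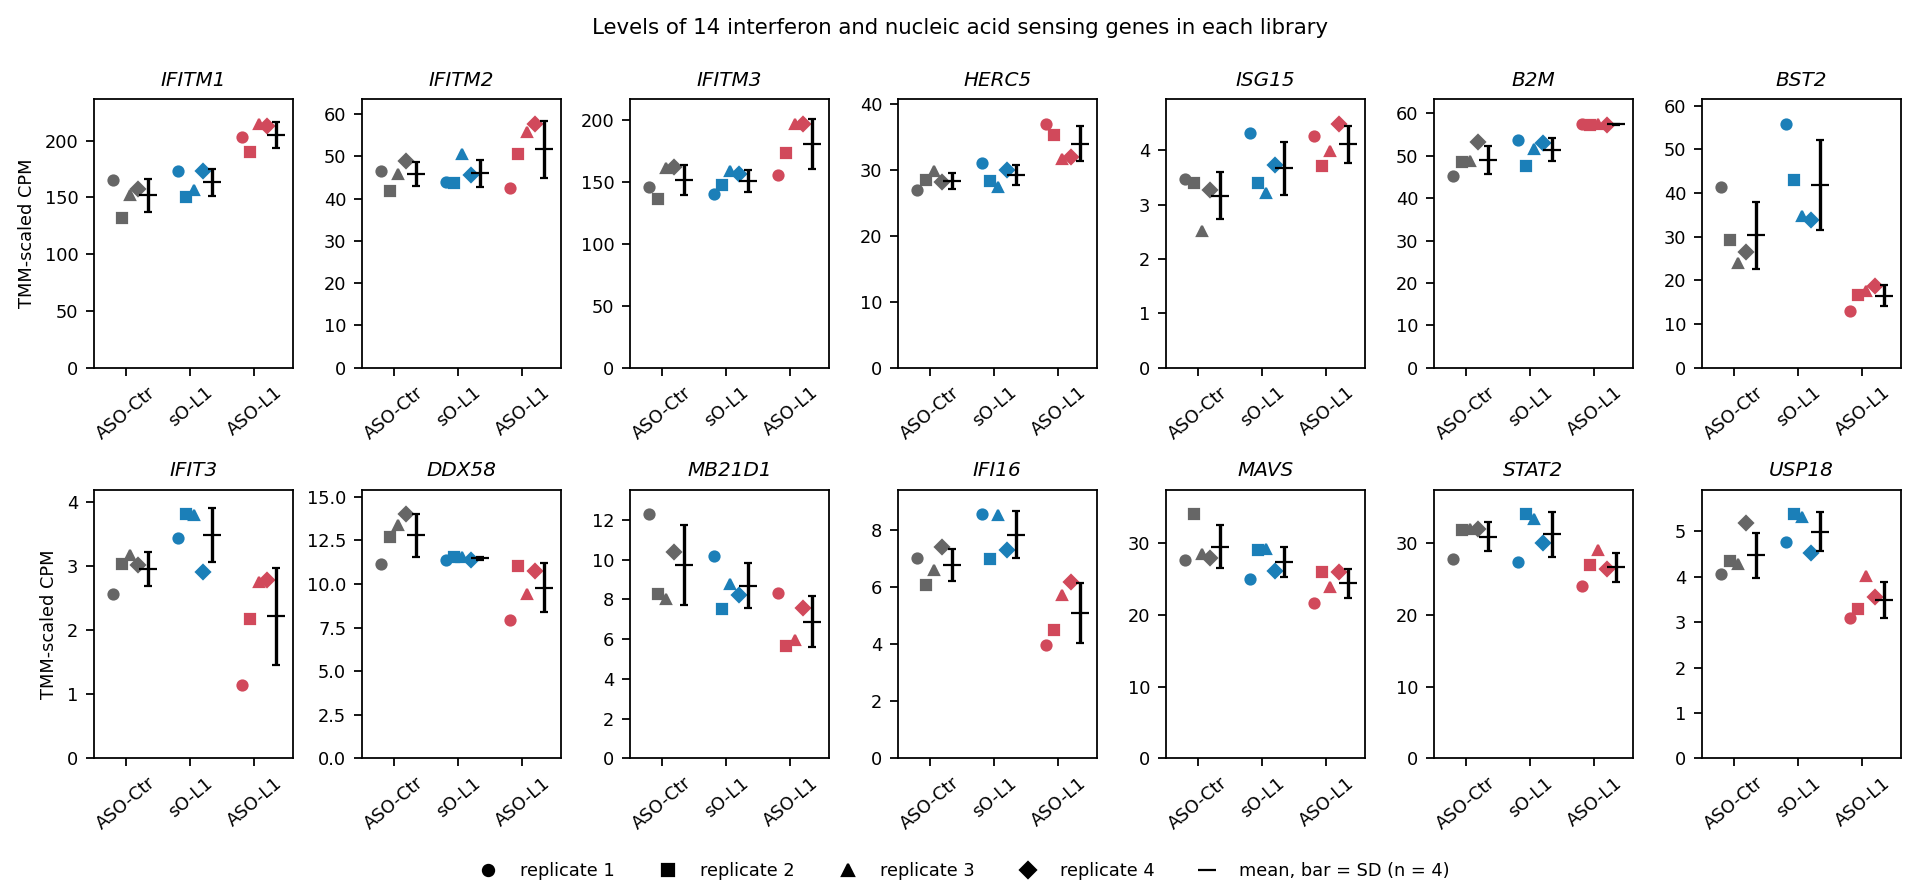
Level of 14 genes in TMM-scaled CPM on linear axes from 0, 1 point per library with the marker shape giving the replicate number, and the mean with its SD beside each group (n = 4). IFITM1, HERC5 and B2M are higher in all ASO-L1 libraries than in any other, and BST2, DDX58 and USP18 are lower in all of them.

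The other 7 effectors tested passed no comparison with all libraries. IFI27, IFI6 and IFIT1 were at mean levels under 1 CPM in every group, OAS3, IFI35 and MX1 between 0.715 and 3.04 CPM, and IFIT5 between 3.22 and 3.87 CPM. MX1, the GTPase that traps viral nucleocapsids, was at 2.18, 2.17, 1.92 and 2.58 CPM in ASO-Ctr, 3.69, 2.53, 3.09 and 2.85 in sO-L1 and 2.81, 2.33, 1.55 and 2.64 in ASO-L1. It was highest in sO-L1 within every replicate number, yet its log2 difference from ASO-Ctr, 0.44 (SE 0.16, unadjusted p = 0.0122), had an edgeR adjusted p of 0.459. OAS3, the family member with the highest level here, was at 0.856, 1.17, 1.196 and 1.39 CPM in ASO-Ctr, 0.659, 0.783, 0.794 and 0.622 in sO-L1 and 0.721, 0.752, 1.10 and 0.985 in ASO-L1. It was the only one of the 30 genes whose sO-L1 and ASO-Ctr libraries did not overlap (background 3.23%, or 1.99% with sO-L1 lower), with a log2 fold change of -0.67 (SE 0.22, unadjusted p = 0.00677, edgeR adjusted p = 0.372). The fourth gene with an unadjusted p under 0.05 between sO-L1 and ASO-Ctr was IFITM1, at a log2 fold change of 0.11 (edgeR adjusted p = 0.641), higher within every replicate number.

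ASO-L1 replicate 1 stood out among the lower genes. Of the 8 genes called lower in a comparison, an ASO-L1 library was the lowest of the 12 in 8, and it was replicate 1 in 7, the exception being MB21D1. Over all genes called lower between ASO-L1 and ASO-Ctr, that library was the lowest in 65.6%. Of the 8 genes called higher, an ASO-L1 library was the highest in 8, and it was replicate 1 in 2. That the extreme library was from ASO-L1 follows largely from the choice of genes by their call. No share over all genes called higher stands beside the higher side. The common biological coefficient of variation was 0.0634 with all libraries, 0.0397 without ASO-L1 replicate 1 and 0.0588 to 0.0687 without any other single library. Without ASO-L1 replicate 1, BST2, DDX58, MB21D1, IFI16, MAVS, STAT2 and USP18 were still called lower against ASO-Ctr.

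The authors' deposited table compares ASO-L1 with sO-L1 and lists 31 of the 35 genes. In the authors' deposited table, an adjusted p under 0.05 is given on the higher side for 5 (IFIH1, IFITM1, IFITM3, HERC5 and B2M) and on the lower side for 5 (IFI16, STAT2, USP18, BST2 and IFIT3). These 10 were called here too, in the same direction. DDX58, MB21D1 and MAVS were called here only, and have adjusted p values of 0.0839, 0.0690 and 0.162 in the authors' deposited table. Its log2 fold change of BST2 is -1.34.

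The other genes of the pathway were read from 137 genes in 8 lists, of which 110 passed the filter. Between ASO-L1 and ASO-Ctr 24 were higher and 25 lower (44.5%, against 44.3% of all genes). Against sO-L1 24 were higher and 27 lower (46.4%, against 44.0% of all genes). Between sO-L1 and ASO-Ctr 0 were called by edgeR, against 0.290% of all genes. An unadjusted p under 0.05 was reached by 5 of the 110, and by 1232 of all 17264 genes.

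Among 10 other sensors and cofactors, 2 were higher and 2 lower in ASO-L1 than in ASO-Ctr. ZNFX1, a helicase that binds double-stranded RNA at mitochondria, rose from 27.6 ± 1.64 to 39.1 ± 3.50 CPM (log2 0.49, edgeR adjusted p = 2.98e-05). PQBP1, a cofactor of MB21D1, rose from 51.4 ± 5.05 to 67.8 ± 2.30 CPM (log2 0.40, adjusted p = 1.18e-05). EIF2AK2, or PKR, the kinase that stops translation on double-stranded RNA, had a log2 fold change of -0.21 (edgeR adjusted p = 0.00438). Against sO-L1 EIF2AK2 was not called (log2 -0.13, edgeR adjusted p = 0.065). TRIM25, a ligase that activates DDX58, had a log2 fold change of -0.38 against ASO-Ctr (edgeR adjusted p = 8.91e-05). Of 14 adaptors and kinases, 5 were higher (CHUK, TRAF6, IKBKB, IRAK1 and TBK1) and MYD88 was lower (42.9%, against 44.3% of all genes). TBK1, the kinase that phosphorylates IRF3, had a log2 fold change of 0.18 (edgeR adjusted p = 0.0124) against ASO-Ctr and 0.11 (adjusted p = 0.103) against sO-L1.

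Of 10 NF-kB factors and inhibitors, 4 were higher (NFKB2, REL, NFKB1 and NFKBIA) and 2 lower (RELB and NFKBIB) against either other group. The share called was 60.0% in either comparison, against 44.3% and 44.0% of all genes. NFKB2, the precursor of p52, was at 42.4, 24.8, 21.2 and 22.4 CPM in ASO-Ctr, 42.3, 29.4, 26.9 and 26.5 in sO-L1 and 71.9, 43.7, 33.8 and 32.7 in ASO-L1. Replicate 1 was highest in each group, and within each replicate number ASO-L1 was highest (log2 0.70, SE 0.071, edgeR adjusted p = 7.72e-07 against ASO-Ctr). RELB, which pairs with p52, went the other way, from 7.18 ± 1.01 CPM in ASO-Ctr to 3.91 ± 0.639 in ASO-L1 (log2 -0.85, adjusted p = 3.88e-05).

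Among 19 interferon receptors and JAK-STAT genes, 4 were higher and 4 lower in ASO-L1 than in ASO-Ctr (42.1%, against 44.3% of all genes). JAK1, the kinase shared by all interferon receptors, was at 25.1 ± 3.07 CPM in ASO-Ctr and 36.9 ± 1.46 in ASO-L1 (log2 0.56, edgeR adjusted p = 3.62e-05), and SOCS3, a feedback inhibitor of cytokine signalling, at 5.69 ± 0.927 and 8.57 ± 1.16 CPM (log2 0.59, adjusted p = 6.06e-05). IFNLR1, the receptor chain specific to type III interferon, was at 13.2 ± 0.648 and 8.33 ± 1.02 CPM (log2 -0.66, adjusted p = 8.54e-06). PIAS1, a SUMO ligase that inhibits cytokine signalling, was lower as well (log2 -0.41 against sO-L1, adjusted p = 4.53e-05).

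Of 27 other interferon-stimulated genes tested, 3 were higher and 10 lower in ASO-L1 than in ASO-Ctr, with a median log2 fold change of -0.20, and 3 and 11 against sO-L1. The shares called, 48.1% and 51.9%, stand beside 44.3% and 44.0% of all genes (23.1% and 22.9% lower). TRIM5, a restriction factor that recognises retroviral capsids, was at 10.9, 11.1, 11.7 and 11.1 CPM in ASO-Ctr, 10.2, 11.1, 9.18 and 11.9 in sO-L1 and 3.71, 5.63, 6.25 and 8.14 in ASO-L1, 1.90-fold lower than in ASO-Ctr (edgeR adjusted p = 2.91e-05). HELZ2, a helicase and nuclear receptor coactivator, had a log2 fold change of -0.49 (adjusted p = 5.11e-05), and NMI, an interferon-raised partner of STAT proteins, of -0.62 against sO-L1 (adjusted p = 2.15e-05). The 3 higher genes were LAMP3, TRIM56 and SHISA5.

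Among 13 genes of nucleic acid metabolism that limit recognition of the cell's own nucleic acid, 4 were higher and 2 lower in ASO-L1 than in ASO-Ctr. The share called was 46.2%, against 44.3% of all genes. SAMHD1, which degrades nucleotides needed for reverse transcription, was at 111, 108, 112 and 111 CPM in ASO-Ctr, 111, 107, 115 and 112 in sO-L1 and 45.95, 59.3, 70.2 and 75.2 in ASO-L1. The control and sense libraries were close together and every ASO-L1 library was lower, 1.78-fold in the fit against ASO-Ctr (edgeR adjusted p = 8.46e-07). ADAR, which edits double-stranded RNA and so hides it from IFIH1, was at 512 ± 19.7 CPM in ASO-Ctr and 463 ± 11.3 in ASO-L1 (log2 -0.14, adjusted p = 0.00322). Of 17 MHC class I genes tested, 35.3% were called between ASO-L1 and ASO-Ctr, against 44.3% of all genes. The peptide transporter subunits TAP1 and TAP2 were higher and PSME1, ERAP1, CALR and PDIA3 were lower. B2M, described above, was thus higher together with TAP1 and TAP2, with log2 fold changes of 0.39 and 0.23 (edgeR adjusted p = 0.00193 and 0.00979).

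**Figure D4:**
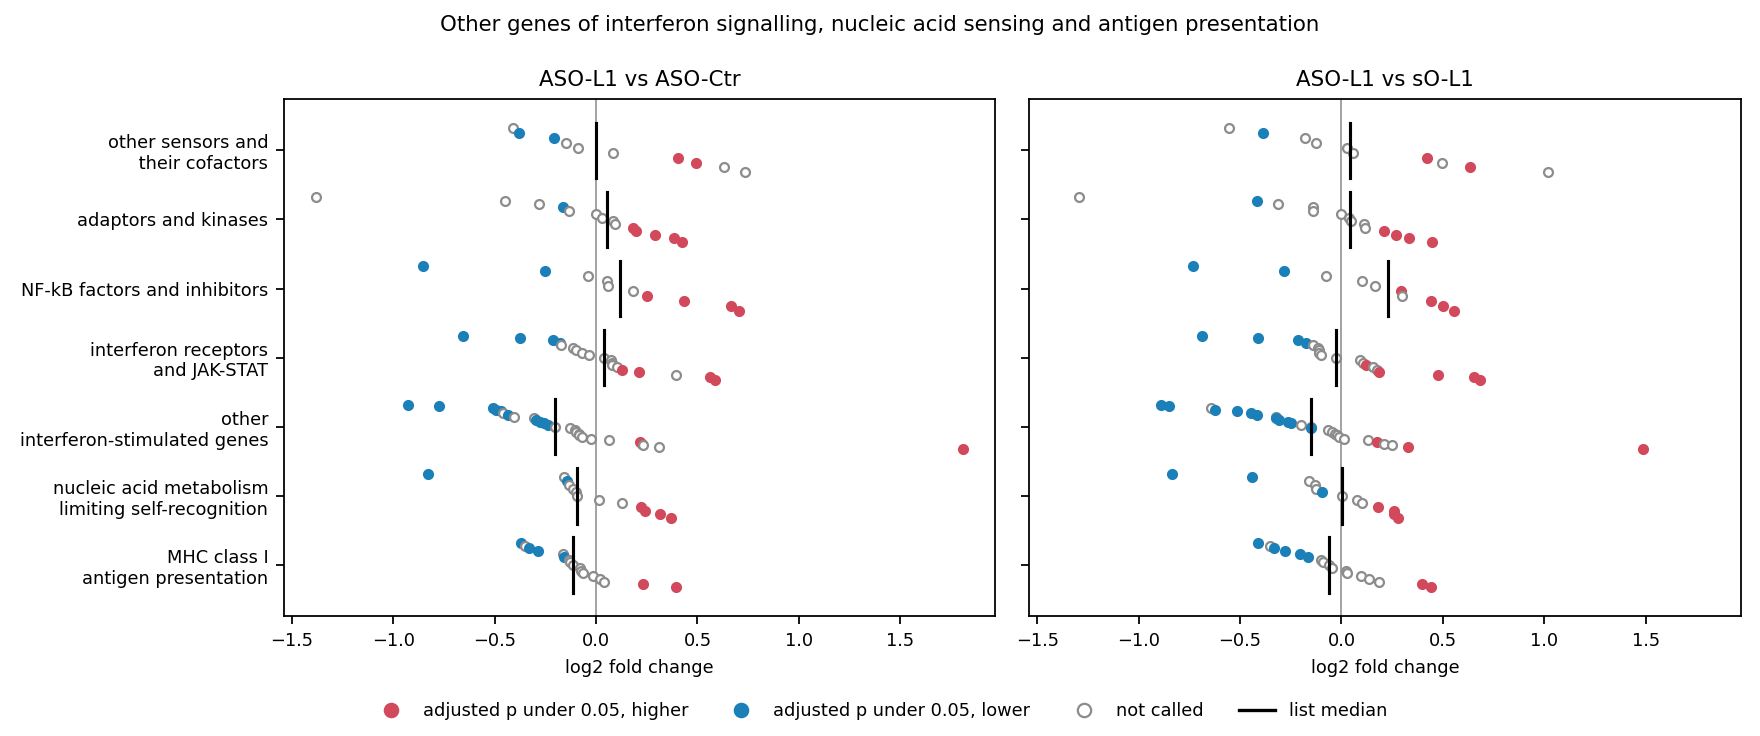
Log2 fold change of the 110 other pathway genes that passed the filter, 1 point per gene in 7 lists, for ASO-L1 against ASO-Ctr and against sO-L1, with the list median as a bar. Filled points have an edgeR adjusted p under 0.05. In the left panel, the list of other interferon-stimulated genes has the lowest median (-0.20), with 10 genes passing on the lower side and 3 on the higher side.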

How the data were processed

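Poly(A) RNA of 12 libraries (3 groups of 4) was made into directional libraries from 80 to 130 ng of RNA, per the labels. The submitters' processing notes name Trim Galore 0.4.0, TopHat2 2.0.13, featureCounts of Subread 1.5.0 and the build hg19. The gene annotation and strand setting of the counting are not given in the sources used here. The deposited table of raw counts per gene has duplicate reads removed, per the labels, which lowers abundant genes more than rare ones. Another file deposited by the authors gives log2 values after normalization and batch correction. The authors' deposited comparison table, for ASO-L1 against sO-L1, gives log2 fold changes, p-values and adjusted p-values. It also holds a moderated statistic and a log odds score, deposited by the authors and not used here. No entry counts LINE1 itself. A spreadsheet had turned 26 gene symbols into dates, none of them among the 35 genes.

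Testing used edgeR 4.0.16 in R 4.3.3: TMM scaling, a filterByExpr minimum count of 10, and a two-sided quasi-likelihood F-test on the counts of the 12 libraries, with terms for group and replicate number. The filter kept 17264 genes, over which p-values were adjusted by Benjamini-Hochberg. Intervals are 95% intervals on the residual plus prior degrees of freedom (6 and 10.8). The biological coefficient of variation was 0.0634. Depth was 22.8 to 55.1 M counts. Over 10549 genes (mean count 200 or more), libraries of the same replicate number deviated together from their group means (12 pairs, r from 0.216 to 0.725, threshold 0.1, against a median of -0.223 for other pairs), so the number was kept as a block. No 2 libraries were identical (0 pairs), and replicates differed by 3.00 to 29.0 in chi-squared per gene. On simulated counts for ASO-L1 against ASO-Ctr (17165 genes), 28 of 50 genes changed 1.2-fold were recovered, and all 50 at 1.5-fold, 2-fold and 4-fold, with 9 false calls. The changed genes were few and well counted, the spread was the same for all genes, and no library was made to stand apart. In the data 44.3% of genes were called, so these figures do not carry over to them or to genes with low counts.

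Genes named were all 35 members, with values per library for those called and at an average log2 CPM of at least 1. MX1 and OAS3, which were not called, also have values per library, chosen after these were seen. Of the other pathway genes the 5 with the smallest adjusted p per direction and comparison were named, plus IFNB1, IFNL1, TBK1, ADAR, EIF2AK2, RSAD2 and CXCL10, and whole groups of 5 or fewer. One further gene that this rule names is not reported here. IFNE, IFNG and the zero-count interferon genes were added after their counts were seen. The 35 genes, the lists and the tests were chosen with earlier results of these data known. Alternatives were no replicate block, other scaling, other filters, DESeq2 1.42.0, only the 2 groups compared, limma 3.58.1 on the authors' log2 table, and leaving out each replicate number or library. The limma fit had terms for group only, on values already batch-corrected by the authors, so its p-values may be too small. Promoter sequences are from RefSeq, GRCh38.p14. No sequence was matched for DHX58, MB21D1, TMEM173, IRF3, IRF7, USP18, IFITM2, IFIT2, OAS2 and OASL. Exon lengths and overlaps are from GENCODE v29, another annotation than that of the counts.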

Additional observations from a re-analysis of the deposited data

Results flagged for a closer look

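In each of the 30 genes that passed the filter, every group of 4 libraries was checked for 1 library far from the other 3, by the gap to its neighbour relative to the range of the group. Of 90 such groups 5 stood out, and chance alone gives about 1 in 20.

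MAVS was at 34.0 CPM in ASO-Ctr replicate 2 and at 27.7 to 28.4 in the other ASO-Ctr libraries. STAT2 was at 27.8 CPM in ASO-Ctr replicate 1 against 31.7 to 32.0 in the other 3. IRF1 was at 5.56 CPM in sO-L1 replicate 1 against 3.57 to 3.79. IFIT1 was at 1.117 CPM in the same library against 0.720 to 0.765. IFI27 was at 0.829 CPM in ASO-L1 replicate 1 against 0.412 to 0.461. Replicate 1 was the library concerned in 4 of the 5. Without ASO-Ctr replicate 2, MAVS was still called lower in ASO-L1 than in ASO-Ctr, and so was STAT2 without ASO-Ctr replicate 1. IRF1, IFIT1 and IFI27 were called in no comparison with all libraries.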

How the results depend on the processing

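Of the 14 genes called between ASO-L1 and ASO-Ctr, 8 were called in every alternative run (DDX58, MB21D1, MAVS, IFITM1, IFITM3, BST2, HERC5 and B2M). Of the 13 called between ASO-L1 and sO-L1, 5 were (IFI16, USP18, IFITM1, IFITM3 and BST2). Of the genes not called, 5 of 16 between ASO-L1 and ASO-Ctr were called in at least 1 alternative (IRF3, IRF7, IFI35, IFIT3 and OAS3), 8 of 17 between ASO-L1 and sO-L1 (TMEM173, IRF9, IFITM2, ISG20, IFI6, IFI27, IFIT5 and MX1) and 2 of 30 between sO-L1 and ASO-Ctr (BST2 and OAS3). No called gene changed direction, and sign changes of genes not called on either side were not counted. Over the 16 fits without 1 replicate number or 1 library, genes of the 35 called higher between ASO-L1 and sO-L1 ranged from 2 (without ASO-L1 replicate 2) to 6 and those lower from 3 (without replicate 2) to 8. Between sO-L1 and ASO-Ctr they ranged from 0 to 1 higher, other pathway genes from 0 to 2 higher, and all genes from 1 to 169 higher and 8 to 241 lower, the last values without ASO-L1 replicate 1. Without the replicate block, 5 of the 35 genes were lower between ASO-L1 and sO-L1 in place of 8. Between sO-L1 and ASO-Ctr 1 gene was higher without a filter, 1 higher with only the 2 groups compared with the replicate block (BST2 in both), and 1 lower with limma on the authors' log2 table (OAS3). Other pathway genes called higher there numbered 2 with only the 2 groups. Over all genes that comparison gave 12 higher and 38 lower, but 2 and 15 without the replicate block, 46 and 95 without a filter, 263 and 377 with only the 2 groups, 28 and 67 with DESeq2, and 53 and 84 with limma. The fit without a filter had an infinite prior degrees of freedom, so its p-values take nothing from a gene's own spread, and that with only sO-L1 and ASO-Ctr had 71.8, against 10.8 with all libraries. Apart from the calls named here and in the text, the block changed no call of the 14 between ASO-L1 and ASO-Ctr except IFITM2, lost without it. Genes under about 1 CPM rest on few reads, and depth limits what can be said of them.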
